A study of Mus musculus with 74 samples.

Results

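The Dppa (developmental pluripotency-associated) genes Dppa2, Dppa3, Dppa4 and Dppa5a were followed in RNA-seq of mouse embryonic stem (ES) cells. They were taken by their symbols, and these 4 genes, of the 37620 listed, were measured in all 35 libraries of 12 conditions. The symbols of 2 other listed genes start with Dppa: Dppa1 had at most 10 counts in any library and Dppa5b, a near copy of Dppa5a, at most 46, so neither is described further.

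The study examined how the transcription factor Nanog supports self-renewal with LIF, the cytokine that maintains ES cells in serum, and without it. The cells are ES cell lines, the SunTag lines being made from the ES cell line E14Tg2a, and grew in serum, with 10 ng/ml LIF unless it was withheld. SunTag cells carry a vector that, under 1 µg/ml doxycycline (Dox), makes a catalytically dead Cas9 and a VP64 activator that binds to it, and a guide RNA brings the complex to the endogenous Nanog promoter. The parental SunTag clones were C1 and C2. A single Nanog SunTag line was kept from each of them, and a single Nanog/Otx2 SunTag line, named C1ON3 or C2ON3, was then made from each of these by adding a guide to the Otx2 promoter. SunTag RNA was collected at day 3 in the presence or absence of LIF and Dox. With LIF, Nanog SunTag cells gave 3 libraries without Dox and 2 with it, and without LIF they gave 3 and 3. The Nanog/Otx2 SunTag cells gave 3 and 4 libraries with LIF, and 4 and 4 without it. The 44iN cells lack endogenous Nanog and carry a Dox-dependent Nanog transgene: 2 libraries came from cells with Dox, 2 from cells 24 h after Dox removal and 2 from long-term (LT) cultures without Dox, kept under selection. Unmodified Tg2a cells in serum and LIF gave 3 libraries. Every SunTag group thus rests on a single line per clone, so a difference between guides cannot be told apart from a difference between lines, and the library names of both guide sets carry different prefixes. So do those of Nanog SunTag libraries with and without LIF, and those of LT and Tg2a libraries. What the prefixes stand for is not stated, and any difference they mark cannot be told apart from that of LIF or of the cells. Libraries of a line may be technical repeats, since separate cultures are not stated for each of them, and p-values measure the spread between these libraries.

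Values are normalised counts, the estimated counts of a gene divided by a size factor for each library. Library totals ran from 6107512 to 92244655 counts with a median of 29298745. The lowest was in a Nanog/Otx2 library with LIF and without Dox (C2ON3-1), where Dppa3 rests on 11 counts. The targeted genes followed the labels. Nanog stood between 2234 and 8484 normalised counts in Nanog SunTag libraries without LIF and Dox and between 45041 and 55641 after Dox, a log2 change of 3.16 ± 0.39 (SE; edgeR, adjusted p = 0.000899). With LIF it stood between 21940.5 and 29487 without Dox and between 75226 and 93813 with Dox. That change of 1.74 ± 0.39 (SE; edgeR, adjusted p = 0.0793) was not called. In Nanog/Otx2 cells Otx2 rose with Dox by 0.85 without LIF (edgeR, adjusted p = 0.000566) and 1.88 with LIF (adjusted p = 7.83e-06). The ES cell markers Pou5f1, Sox2, Zfp42 and Nanog had a summed level never below 31248 normalised counts, but it fell without LIF. In Nanog SunTag cells without Dox this sum, which includes the targeted gene Nanog, was 89119 to 92368 with LIF. Without LIF it was 33096 to 36460, and 4 of 4 markers were called lower. In Nanog/Otx2 SunTag cells 3 of 4 were called lower. Markers of other lineages also moved with LIF in Nanog SunTag cells. Neural markers (4 in the table) summed to between 167 and 351 normalised counts with LIF and to between 1184 and 3683 without LIF, with 1 of 3 tested genes called higher. Of the mesendoderm markers, 2 of 3 tested were higher, and of the primitive endoderm markers, 5 of 6 tested were lower. Of all genes tested, 41.5% were called in either direction. The summed primitive endoderm markers were not lower, at 777 to 1748 normalised counts with LIF and 1580 to 1878 without it. In Nanog/Otx2 SunTag cells 2 of 3 neural and 2 of 3 mesendoderm markers tested were higher without LIF. Of their primitive endoderm markers 1 was higher and 1 lower among 6 tested, against 49.8% of all genes called in either direction. Primitive endoderm markers summed to between 8520 and 13018 in LT cells and between 6074 and 8559 in Tg2a cells. The part of these other markers in the Dppa results was not tested. In bulk RNA, fewer cells of a type and less RNA per cell cannot be told apart.

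Dppa genes were grouped by their expression in pluripotent cells, and they do not form a single protein family. Dppa2 and Dppa4 are small nuclear proteins with a SAP domain that act as a heterodimer. They occupy promoters that carry active and repressive histone marks together, keep them from gaining DNA methylation, and act upstream of Dux and the Zscan4 genes of the two-cell-like state. Dppa3, also called Stella or PGC7, is a maternal and germ-cell factor that keeps DNA methylation in check by restraining Uhrf1. It is known for heterogeneous expression between ES cells in serum and lies in a cluster with Gdf3 and Nanog. Dppa5a, also called Esg1, is a small RNA-binding protein with a KH domain and one of the most abundant transcripts of ES cells.

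On mm9, Dppa4 spans chr16:48283848-48294405 and Dppa2 spans chr16:48310590-48319836, both on the plus strand, with 26.7 kb between their starts. Dppa5a spans chr9:78214859-78215984 on the minus strand. Dppa3 spans chr6:122576428-122580290 on the plus strand, and its start lies 81.1 kb from that of Nanog, which spans chr6:122657507-122664651 on the same strand. Since activation was directed to the neighbour of Dppa3, the guide that recruited it is shown here as read from the study's oligo list, with the adjoining PAM from mm9 in capitals.
Nanog guide and PAM: cttcccactagagatcgccaGGG
The guide matches chr6:122657269-122657288 on the plus strand. It lies upstream of the annotated Nanog gene, outside its exons and introns, with its centre at -229 bases from the Nanog start and 80.85 kb from the Dppa3 start.

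Parts of all 4 transcripts recur in other genes, which limits how exactly single-end reads can be assigned. Windows of 50 bases shared with another gene made up 34.2% of the windows of Dppa2, 16.8% of Dppa3, 32.1% of Dppa4 and 63.7% of Dppa5a. The annotated genes that share them were mostly pseudogenes, such as Gm9788 for Dppa2 and Gm14058 for Dppa4, and Dppa5b for Dppa5a. Counts given to these other genes reached at most 5.99%, 3.60%, 11.04% and 4.19% of the summed counts for Dppa2, Dppa3, Dppa4 and Dppa5a, and for Dppa5a the gene with most of them was Pigp, a protein-coding gene. How RSEM divided reads between a Dppa gene and its copies was not tested.

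**Figure D1:**
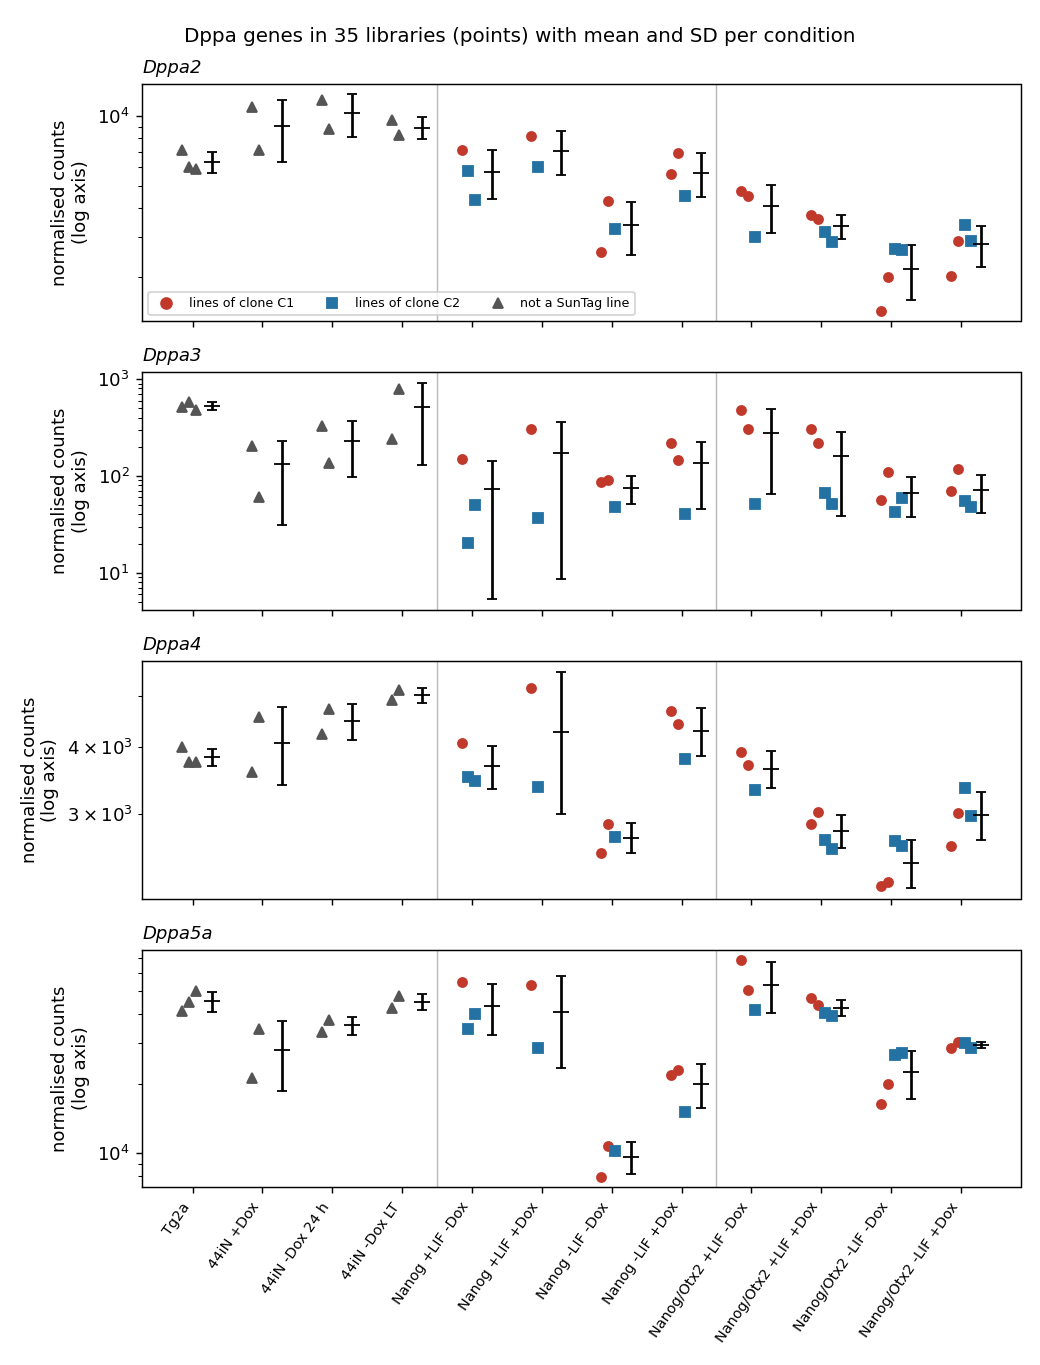
Normalised counts (log axes) of the Dppa genes in the 12 conditions, with a point for each of the 35 libraries and, to its right, the mean and SD of the condition. Circles are lines of clone C1, squares are lines of clone C2 and triangles are 44iN and Tg2a cells. Dppa4 spans the smallest range, a highest over lowest mean of 2.06, and in Dppa3 the circles lie above the squares in 7 of 8 SunTag conditions.

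Per kilobase of exon, Dppa5a was the most abundant of the genes and Dppa3 the least in all 12 conditions. The mean level of Dppa5a per kilobase was 9.02 to 41.4 times that of Dppa2, and Dppa4 exceeded Dppa3 by 4.25 to 29.2 times. Dppa2 and Dppa4, which act together, lay close to each other, with a Dppa2 to Dppa4 ratio per kilobase between 0.707 and 1.81 and above 1 in 7 of 12 conditions. The lowest ratios were those of Nanog/Otx2 cells without LIF and the highest those of 44iN cells.

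Condition means differed by 4.72 times for Dppa2, 7.84 times for Dppa3, 2.06 times for Dppa4 and 5.54 times for Dppa5a from the lowest to the highest. Replicates of a condition varied least for Dppa4, with a median coefficient of variation of 8.66%, and most for Dppa3, at 70.8%. Dppa2 was highest in 44iN cells 24 h after Dox removal, at 10279 ± 2130.1 (SD, n = 2), and lowest in Nanog/Otx2 cells without LIF and Dox, at 2179 ± 577 (SD, n = 4). On CPM values after TMM scaling the highest Dppa2 mean was instead that of LT cells. Dppa4 ran from 5006 ± 157 (SD, n = 2) in LT cells to 2428 ± 247 (SD, n = 4), again in Nanog/Otx2 cells without LIF and Dox. Dppa3 ran from 525 ± 49.9 (SD, n = 3) in Tg2a cells to 67.0 ± 29.4 (SD, n = 4) in that same condition. Dppa5a had its highest mean in Nanog/Otx2 cells with LIF and without Dox, at 53500.2 ± 13339 (SD, n = 3), and its lowest in Nanog cells without LIF and Dox, at 9660.0 ± 1515 (SD, n = 3). When conditions were ordered by their means, the libraries of neighbouring conditions overlapped in 10 of 11 steps for Dppa2, 11 of 11 for Dppa3, 10 of 11 for Dppa4 and 9 of 11 for Dppa5a. Steps without overlap were those from LT to Nanog SunTag cells with LIF and Dox for Dppa2 and from LT cells to 44iN cells 24 h after Dox removal for Dppa4. For Dppa5a they were those from 44iN cells 24 h after Dox removal to Nanog/Otx2 cells without LIF and with Dox, and from Nanog cells without LIF and with Dox to those with neither.

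LIF withdrawal without Dox was used to ask which Dppa genes depend on LIF. In Nanog SunTag cells, 3 of 4 were called and all 3 fell, against 41.5% of all genes tested called in either direction. Dppa5a had the largest fall among them, to 0.220 times its level with LIF, while Dppa2 and Dppa4 fell to 0.577 and 0.725 times. Dppa5a stood at 55075 normalised counts in the C1 library with LIF and at 34508 and 39856 in those of C2, and without LIF it stood at 7936 and 10778 in C1 and 10266 in C2. All 3 libraries without LIF were below all 3 with it, and the log2 change was -2.18 ± 0.27 (SE; edgeR, adjusted p = 9.98e-05). Dppa2 was at 7117, 5768 and 4343 with LIF and at 2566, 4297 and 3244 without, in the same order of libraries. The groups did not overlap, although the highest library without LIF came close to the lowest with it, and the log2 change was -0.79 ± 0.24 (SE; edgeR, adjusted p = 0.0219). Dppa4, the partner of Dppa2, was at 4075, 3522 and 3457 with LIF and at 2536, 2879 and 2717 without. These groups did not overlap either, with a log2 change of -0.46 ± 0.17 (SE; edgeR, adjusted p = 0.0448).

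The 3 calls differed in how much they rested on single libraries. Dppa5a was called under every one of the 17 alternatives. Dppa2 was not called without the +LIF -Dox library of C1 (adjusted p = 0.0647 by edgeR) or without either of the -LIF -Dox libraries C1-1 (0.0978) and C2-1 (0.0640). The call of Dppa4 was lost without any one of 9 of the 11 libraries in the fit, the exceptions being both libraries with LIF and Dox, at edgeR adjusted p-values up to 0.143. It was lost as well with DESeq2's size factors, without a filter and with filterByExpr. Dppa3, at 73.3 ± 68.0 (SD, n = 3) with LIF and 75.2 ± 23.7 (SD, n = 3) without, was not called, with a log2 change of 0.07 ± 0.84 (SE; edgeR, adjusted p = 0.958).

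In Nanog/Otx2 SunTag cells all 4 genes were called lower without LIF, against 49.8% of all genes tested called in either direction. Dppa5a was at 68003 and 50742 in C1ON3 and 41755 in C2ON3 with LIF, and at 16332, 19905, 26569 and 27080.1 without it. The 4 libraries without LIF lay below the 3 with LIF, with a log2 change of -1.29 ± 0.17 (SE; edgeR, adjusted p = 1.89e-05). Dppa2 was at 4726, 4489 and 2977 with LIF and at 1435, 2009, 2656 and 2615 without. The fall was widest within C1ON3, whose libraries were the highest with LIF and the lowest without it, and the log2 change was -0.94 ± 0.22 (SE; edgeR, adjusted p = 0.00202). Dppa4 was at 3917, 3699 and 3333 with LIF and at 2197, 2234, 2666 and 2617 without. Here too no library without LIF reached those with it, with a log2 change of -0.62 ± 0.10 (SE; edgeR, adjusted p = 0.000104). Dppa2, Dppa4 and Dppa5a were called under each of the 22 alternatives.

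Dppa3 was the exception among these falls, because its groups overlapped. It was at 476, 309 and 50.9 normalised counts with LIF and at 56.8, 109.6, 42.5 and 59.0 without LIF. The C2ON3 library was as low with LIF as those without it, so the log2 change of -2.18 ± 0.64 (SE; edgeR, adjusted p = 0.0102) came from C1ON3. Without the highest of those libraries, C1ON3-1 with LIF, Dppa3 was not called, at a log2 change of -1.60 (edgeR, adjusted p = 0.0742).

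**Figure D2:**
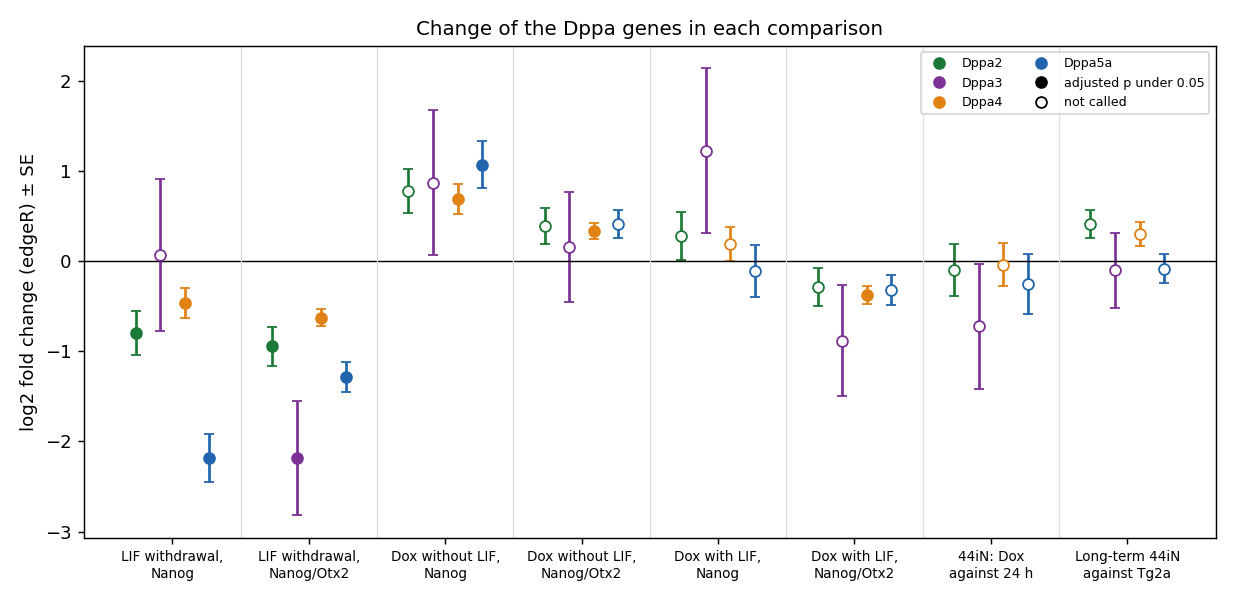
Log2 fold changes (edgeR) of Dppa2, Dppa3, Dppa4 and Dppa5a in 8 comparisons, with the SE as bars and filled points where the adjusted p is under 0.05. Without LIF and Dox the filled points lie below 0, down to -2.18 for Dppa5a in Nanog cells, and the 3 filled points for Dox without LIF lie above 0.

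Dox without LIF was used to ask which of these genes change when Nanog is induced in the absence of LIF. Dox also induces the dead Cas9 and VP64, and SunTag cells without a guide gave no RNA-seq library. Effects of Dox or of these proteins therefore cannot be told apart from those of Nanog in SunTag cells. In Nanog SunTag cells Dppa4 and Dppa5a were called higher, 2 of 4 genes, against 5.14% of all genes tested called in either direction. Dppa5a with Dox was at 21803 and 22955 in C1 and 15024 in C2, all above the 3 libraries without Dox given above. Its log2 change was 1.07 ± 0.26 (SE; edgeR, adjusted p = 0.0359), and its mean with Dox reached 46.2% of its mean with LIF and no Dox. Dppa4 with Dox was at 4671, 4427 and 3802, again above all libraries without Dox. It changed by 0.70 ± 0.17 (SE; edgeR, adjusted p = 0.0353) on the log2 scale, and its mean reached 117% of that with LIF and no Dox. Both calls were lost without any one of 5 libraries (-LIF -Dox C1-1, C1-2 and C2-1, and -LIF +Dox C1-1a and C1-1b), with edgeR adjusted p-values from 0.0833 to 0.157 for Dppa4 and from 0.0797 to 0.156 for Dppa5a. Of the markers of other lineages, 1 of 3 tested neural markers was lower with Dox in the same libraries (Nes, at a log2 change of -1.80; edgeR, adjusted p = 0.0113). So was 1 of 3 tested mesendoderm markers (Mixl1, at -1.70; edgeR, adjusted p = 0.0325). Of 6 primitive endoderm and 2 trophoblast markers tested, 0 were called. Primitive endoderm markers summed to between 714 and 988 normalised counts with Dox and 1580 to 1878 without it. Neural markers summed to between 824 and 1471 normalised counts with Dox, against 1184 to 3683 without it, and the mesendoderm markers (5 in the table) to between 423 and 676, against 440 to 650. Their part in the Dppa changes was not tested.

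Dppa2, the partner of Dppa4, did not pass the threshold. With Dox and without LIF it was at 5626, 6907 and 4485, above all 3 libraries without Dox. The log2 change was 0.78 ± 0.24 (SE; edgeR, adjusted p = 0.0971), and the mean reached 98.8% of that with LIF and no Dox. With the clone as a block the value was 0.76 (edgeR, adjusted p = 0.0345), the count of genes called went from 803 to 1375, and Dppa2 was also called by DESeq2 at an adjusted p of 0.0439 and by edgeR in a fit of the 6 libraries without LIF alone at an adjusted p of 0.0405. Dppa3 stood at 219 and 145 in C1 and 40.7 in C2 with Dox. Both C1 values exceeded those without Dox and the C2 value did not, and the log2 change was 0.87 ± 0.80 (SE; edgeR, adjusted p = 0.652).

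With LIF, 0 of the 4 genes were called on Dox in Nanog SunTag cells, and 0 had an unadjusted p under 0.05 or were called by DESeq2. Of all genes tested 0.563% were called by edgeR there, while 2227 had an unadjusted p under 0.05 and DESeq2 called 588. Nanog itself, at 1.74, was not called by edgeR (adjusted p = 0.0793) but was by DESeq2 (adjusted p = 0.00218). Dppa5a was at 53248 in C1 and 28399 in C2 with Dox, and Dppa2 was at 8173 and 5996. The libraries with Dox overlapped those without it for all 4 genes. Log2 changes were 0.28 ± 0.27 (SE) for Dppa2, 1.23 ± 0.92 for Dppa3, 0.19 ± 0.19 for Dppa4 and -0.10 ± 0.29 for Dppa5a. Dppa4 spread from 3371 in C2 to 5168 in C1 with Dox. The edgeR adjusted p-values of these 4 changes ran from 0.570 to 0.905.

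Whether Dox acted differently with and without LIF was tested by the interaction. By edgeR 0 of the 4 genes were called, against 1.93% of all genes. At an unadjusted p under 0.05 there was 1 of the 4 and 2376 of all genes, and DESeq2 called 0 and 877. Dppa5a came closest, with a Dox response without LIF larger by 1.18 ± 0.39 (SE; edgeR, adjusted p = 0.171), and with the clone as a block it was called at 1.22 (edgeR, adjusted p = 0.0426), as the number of genes called went from 302 to 709. For Dppa2 and Dppa4 the interaction was 0.50 and 0.50, at edgeR adjusted p-values of 0.566 and 0.384.

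In Nanog/Otx2 SunTag cells, where Otx2 was activated together with Nanog, Dox without LIF gave a call for Dppa4 alone, 1 of 4 genes, against 17.3% of all genes. Dppa4 with Dox was at 2612, 3016, 3359 and 2979. It was higher with Dox in each of the 4 numbered libraries, but the groups overlapped because both libraries of C2ON3 without Dox were above the lowest library with it. The log2 change was 0.34 ± 0.09 (SE; edgeR, adjusted p = 0.0203), and the call was lost without any one of 4 libraries (-LIF -Dox C1ON3-1 and C1ON3-2, and -LIF +Dox C1ON3-2 and C2ON3-1), at edgeR adjusted p-values from 0.0544 to 0.0687. Dppa5a with Dox was at 28500.0, 30115, 29999 and 28515. These values hardly varied and lay above all 4 without Dox, yet the log2 change of 0.42 ± 0.16 (SE; edgeR, adjusted p = 0.0818) was not called. It was called at 0.52 (edgeR, adjusted p = 0.0484) without the -LIF -Dox library C2ON3-2, and at 0.42 (adjusted p = 0.0484) without the +LIF -Dox library C1ON3-1. Dppa2 with Dox was at 2018, 2875, 3381 and 2861, overlapping the libraries without Dox, with a log2 change of 0.39 ± 0.20 (SE; edgeR, adjusted p = 0.200). In these cells 1 of 3 tested neural markers was lower with Dox (Zic1, at -1.33; edgeR, adjusted p = 0.0225) and 1 of 3 tested mesendoderm markers was higher (Eomes, at 0.80; adjusted p = 0.0248). Neural markers summed to between 697 and 1609 normalised counts with Dox and 873 to 3454 without it, mesendoderm markers to between 275 and 458 with Dox and 216 to 324 without it, and their part in the change of Dppa4 was not tested. Means with Dox and no LIF were 68.5% for Dppa2, 25.9% for Dppa3, 82.0% for Dppa4 and 54.7% for Dppa5a of those with LIF and no Dox.

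With LIF, Dox in Nanog/Otx2 cells gave the opposite sign for Dppa4, the only gene of the 4 called, against 22.9% of all genes. Dppa4 was at 2873, 3029, 2677 and 2582 with Dox, all below the 3 libraries without it. It changed by -0.37 ± 0.10 (SE; edgeR, adjusted p = 0.0141), and was not called without either C1ON3 library of the +LIF -Dox group (edgeR, adjusted p = 0.0727 and 0.0581). Beside this change 1 of 3 tested neural markers was lower with Dox (Pax6, at -1.87; edgeR, adjusted p = 0.0102) and 1 of 3 tested mesendoderm markers higher (Eomes, at 1.19; adjusted p = 0.00582). Neural markers summed to between 423 and 606 normalised counts with Dox and 264 to 675 without it, mesendoderm markers to between 188 and 339 with Dox and 107 to 162 without it, and their part was not tested. The other Dppa genes had log2 changes of -0.28 for Dppa2, -0.88 for Dppa3 and -0.32 for Dppa5a, with overlapping groups. Dppa5a was at 47042, 43532, 40514 and 39120.1 with Dox, and Dppa2 was at 3715, 3580.3, 3158 and 2832.

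Whether the Dox responses differed between the guides was tested in all 26 SunTag libraries. Without LIF, edgeR called 0 of the 4 genes and 0.0308% of all genes, with 2 of the 4 and 923 of all genes at an unadjusted p under 0.05 and 0 and 42 called by DESeq2. With LIF, it called 0 of the 4 and 0.037% of all, with 1 and 1726 at an unadjusted p under 0.05 and 0 and 54 called by DESeq2. Without LIF the differences, Nanog/Otx2 minus Nanog, were -0.44 for Dppa2, -0.76 for Dppa3, -0.40 for Dppa4 and -0.70 for Dppa5a on the log2 scale, at edgeR adjusted p-values of 0.848 to 0.937. With LIF they were -0.59, -2.12, -0.58 and -0.23, and Dppa4 was called at -0.84 (edgeR, adjusted p = 0.0123) once the +LIF +Dox library C2-1 of Nanog cells was left out, which leaves 1 library in that group, assumed to vary like those of the other groups.

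Levels, as distinct from responses, did differ between the sets of lines. With Dox and without LIF, Dppa2 and Dppa4 were lower in Nanog/Otx2 cells than in Nanog cells, 2 of 4 genes, against 32.0% of all genes called. Dppa2 averaged 5673 ± 1212 (SD, n = 3) in Nanog cells and 2784 ± 565 (SD, n = 4) in Nanog/Otx2 cells, with no overlap of libraries and a log2 difference of -1.09 ± 0.28 (SE; edgeR, adjusted p = 0.00793). Dppa4 averaged 4300.3 ± 448 (SD, n = 3) and 2992 ± 305 (SD, n = 4), also without overlap, with a log2 difference of -0.59 ± 0.13 (SE; edgeR, adjusted p = 0.00468). Dppa5a had the opposite sign at 0.49 ± 0.32 (SE; edgeR, adjusted p = 0.246) and was not called, although all 4 Nanog/Otx2 libraries were above the 3 Nanog libraries. In this fit the libraries without Dox of both guides share a level, although Dppa5a differed between them without LIF, as given below. That difference enters the spread of the fit, so the missing call cannot be read as equal levels of Dppa5a. With a block for the line, in Nanog/Otx2 cells together with the replicate number, where only the Dox responses carry the contrast, edgeR called 0 of the 4 genes and 66 instead of 5193 of all genes, and the values were -0.46 for Dppa2, -0.44 for Dppa4 and -0.22 for Dppa5a.

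The lines also differed before Dox. The comparison of the guides without LIF and Dox was added after the values had been seen, and it called Dppa2 lower and Dppa5a higher in Nanog/Otx2 cells, 2 of 4 genes, against 25.4% of all genes. The log2 differences were -0.66 ± 0.23 (SE; edgeR, adjusted p = 0.0401) for Dppa2 and 1.19 ± 0.22 (SE; edgeR, adjusted p = 0.000465) for Dppa5a. For Dppa5a all 4 libraries of Nanog/Otx2 cells lay above the 3 of Nanog cells, and it was called under each of the 30 alternatives. Dppa2 overlapped between the guides and was not called without any one of 4 libraries (Nanog -LIF -Dox C1-2 and C2-1, Nanog/Otx2 -LIF -Dox C1ON3-1 and C1ON3-2), where the edgeR adjusted p reached 0.245. Dppa4 did not pass the threshold here, at -0.19 (edgeR, adjusted p = 0.284). As the guide, the line and the set of libraries change together, they cannot be told apart.

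**Figure D3:**
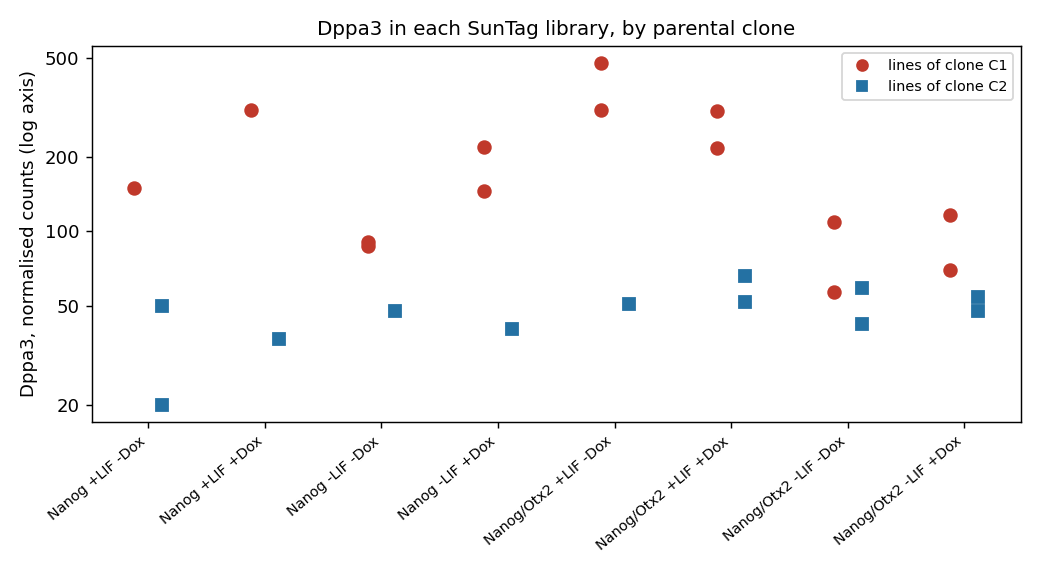
Dppa3 normalised counts (log axis) in each SunTag library, by condition and by the parental clone of the line, with circles for C1 and squares for C2. All circles lie above all squares in 7 of the 8 conditions, and the exception is Nanog/Otx2 cells without LIF and Dox.

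Dppa3 differed between lines of the parental clones. In Nanog cells with LIF it was at 150.0 in C1 and 20.1 and 49.9 in C2 without Dox, and at 308 in C1 and 36.8 in C2 with Dox. Without LIF it was at 87.1 and 90.5 in C1 and 47.9 in C2 before Dox. The lines of C1 thus lay above those of C2 in each of the Nanog conditions, those with Dox and no LIF included. In Nanog/Otx2 cells with LIF and Dox the C1ON3 libraries were at 304 and 217 and the C2ON3 libraries at 66.5 and 51.9. With Dox and no LIF they were at 69.9 and 117, and at 54.6 and 48.0. The means of C1 lines were 1.64 to 8.37 times those of C2 lines over the 8 conditions, and the ranges overlapped in Nanog/Otx2 cells without LIF and Dox alone.

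A term for the clone, added to the fit of the 26 libraries after this pattern had been seen, called 1 of 4 genes, Dppa3, against 31.6% of all genes. The values that led to the comparison are those tested by it. Dppa3 was lower in lines of C2 by a log2 difference of -1.67 ± 0.23 (SE; edgeR, adjusted p = 8.04e-06), 0.315 times its level in lines of C1. It was called in Nanog cells alone at -1.98 (edgeR, adjusted p = 0.00639) and in Nanog/Otx2 cells alone at -1.46. Dppa2, Dppa4 and Dppa5a gave -0.10, -0.07 and -0.17, at edgeR adjusted p-values of 0.579, 0.414 and 0.255. For each of them all C1 libraries were above all C2 libraries in 5 of 8 conditions and below them in 1, Nanog/Otx2 cells without LIF and Dox. Nanog itself was lower in lines of C2 by 0.61 ± 0.14 (SE; edgeR, adjusted p = 0.00170) on the log2 scale, and its part in the difference of Dppa3 was not tested. Of the 9 tested genes within 200 kb of the Nanog start, Nanog itself left out, 5 were lower and 1 higher in C2 lines, against 31.6% of all genes called in either direction, Dppa3 included among the lower ones.

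**Figure D4:**
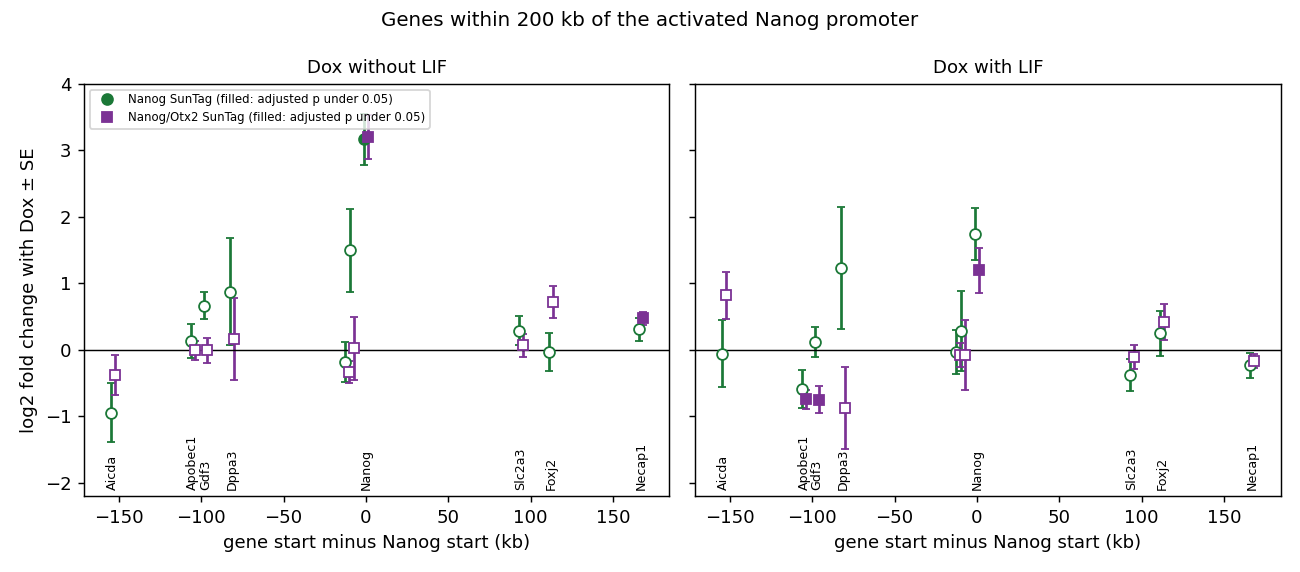
Log2 change with Dox (edgeR, bars are SE) of the tested genes within 200 kb of the Nanog start, against the distance of their start from it in kb, without LIF on the left and with LIF on the right. Circles are Nanog SunTag cells, squares are Nanog/Otx2 SunTag cells, and filled symbols have an adjusted p under 0.05. The unnamed symbols just left of Nanog are Gm10420 and Gm10224. Nanog stands at 3.16 and 3.19 without LIF, and the symbols of Dppa3 are open in both panels.

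Dppa3, which lies beside the activated promoter, had no called Dox response. Its log2 changes were 0.87 ± 0.80 (SE; edgeR, adjusted p = 0.652) in Nanog cells without LIF and 0.16 ± 0.61 (SE; edgeR, adjusted p = 0.892) in Nanog/Otx2 cells without LIF. With LIF they were 1.23 ± 0.92 (SE; edgeR, adjusted p = 0.570) and -0.88 ± 0.62 (SE; edgeR, adjusted p = 0.327), with opposite signs. With the block for the line (in Nanog/Otx2 cells with the replicate number) the SEs were 0.39 to 0.47 instead of 0.61 to 0.92 and Dppa3 was still not called, at log2 changes of 0.64 and 0.16 without LIF and 0.65 and -0.69 with LIF (edgeR, adjusted p = 0.402, 0.783, 0.489 and 0.174). At SEs of this size the lack of a call cannot show a lack of response of Dppa3. Within 200 kb lie 17 genes other than Nanog, of which 9 were tested in each guide. In Nanog cells edgeR called 0 of the 9 with and 0 without LIF, where 0 and 2 had an unadjusted p under 0.05 and DESeq2 called 0 and 1. In Nanog/Otx2 cells Necap1 was higher without LIF, at 0.47, 1 of 9 against 17.3% of all genes, and Apobec1, an RNA-editing enzyme, and Gdf3, a TGF-beta family ligand, were both lower with LIF, at -0.75 each, 2 of 9 against 22.9% of all genes.

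The 44iN cells allow Nanog to be removed or restored in a line with no endogenous gene. Nanog stood at 706 and 739 normalised counts 24 h after Dox removal and at 13366 and 18394 with Dox. The reads 24 h after removal cannot be assigned to the transgene or to a remnant of the disrupted gene. Nanog itself changed by 4.56 ± 0.30 with Dox on the log2 scale (SE; edgeR, adjusted p = 0.0902) and was not called. A lack of calls here therefore cannot show a lack of response. Of the 4 Dppa genes edgeR called 0, and 0.0% of the 14376 genes tested. At an unadjusted p under 0.05 there were 0 and 1023, and DESeq2 called 0 and 141. Dppa2 was at 11785 and 8773 without Dox and 10970.5 and 7107 with it, and Dppa4 at 4236 and 4721 against 3595 and 4568. Dppa5a was at 33457 and 37789 against 21218 and 34402. The groups overlapped for each of these genes, and so did those of Dppa3, at 326 and 136 without Dox and 202 and 60.7 with it. Within each replicate number the normalised counts of all 4 genes were lower with Dox. That shared direction depends on the scaling of the libraries, and the labels do not state that libraries sharing a number are pairs. Log2 changes with Dox were -0.09 for Dppa2, -0.72 for Dppa3, -0.03 for Dppa4 and -0.25 for Dppa5a, with SEs of 0.24 to 0.69. Without the first library with Dox, which leaves 1 library with Dox, assumed to vary like the pair without it, Dppa3 was called at -1.83 (edgeR, adjusted p = 0.00952).

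In LT cells, without Nanog, none of the Dppa genes differed from Tg2a cells by a called amount. Nanog was at 276 and 228 in LT cells and between 19420.2 and 20261 in Tg2a cells, a log2 difference of -6.37 (edgeR, adjusted p = 1.02e-05). Of the 4 Dppa genes edgeR called 0, against 8.61% of all genes tested. At an unadjusted p under 0.05 there were 1 of the 4 and 4047 of all genes, and DESeq2 called 0 and 2294. Dppa2 was at 9585 and 8239.8 in LT cells and at 7098, 6001 and 5916 in Tg2a cells. Dppa4 was at 4895 and 5117 against 3999.97, 3756 and 3748. For both genes the LT libraries were above all Tg2a libraries, with log2 differences of 0.41 ± 0.16 (SE; edgeR, adjusted p = 0.135) and 0.31 ± 0.13 (SE; edgeR, adjusted p = 0.185). Dppa5a was at 42593 and 47789.5 against 40966, 44893 and 49954, with a log2 difference of -0.08 ± 0.17 (SE; edgeR, adjusted p = 0.795). Dppa3 was at 243 and 795 in LT cells, on either side of the Tg2a values of 511, 581 and 484. Its log2 difference was -0.10 ± 0.42 (SE; edgeR, adjusted p = 0.904), and without the second LT library it was -1.23.

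**Figure D5:**
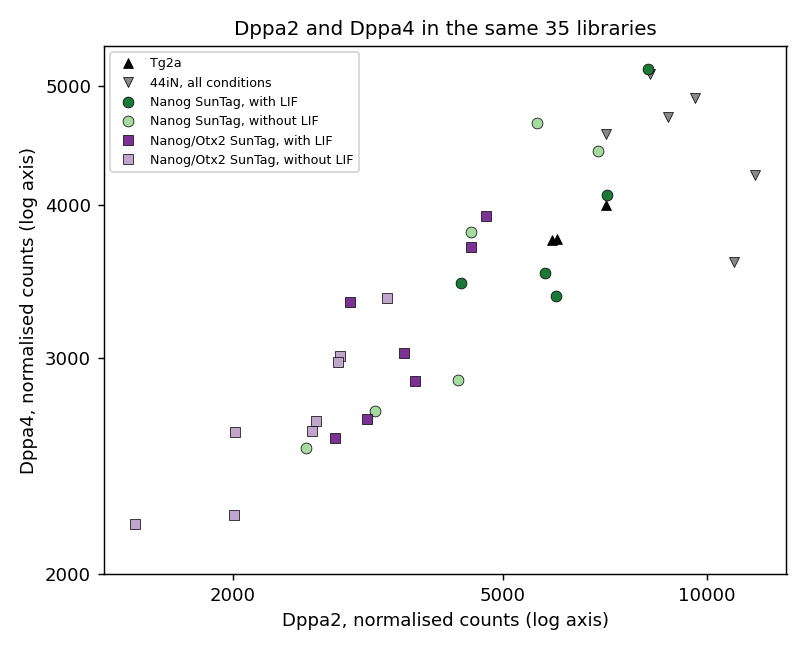
Dppa4 against Dppa2 in normalised counts (log axes), with a point for each of the 35 libraries and a symbol for the cells and for LIF. The points rise together (Pearson r = 0.88), with Nanog/Otx2 SunTag cells without LIF at the lower left.

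Dppa2 and Dppa4, neighbours on chromosome 16 and partners in a heterodimer, followed each other across libraries. On log2 values their Pearson correlation was 0.88 and Spearman's rho 0.91 over 35 libraries, and 0.58 for the deviations from condition means. Among 16800 genes compared, Dppa2 was the gene most like Dppa4, while Dppa4 was the 69th most like Dppa2. These libraries share lines and conditions, so the coefficients are descriptions. Deviations from condition means were also shared between Dppa4 and Dppa5a, which lie on different chromosomes, with r = 0.86, against r = 0.46 for their levels. Dppa3 had r = 0.51 with Dppa2, 0.52 with Dppa4 and 0.47 with Dppa5a. With Nanog, r was between -0.22 and 0.11.

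The genes whose pattern was most like that of each Dppa gene were found on log2 normalised counts over the 35 libraries. For Dppa2 they were Msh6 (r = 0.94), Cdkal1 (0.93), Rpp30 (0.92), Setd3 (0.92) and Mterfd3 (0.92). For Dppa4 they were Dppa2 (0.88), Stk38 (0.85), Msh6 (0.85), Aoah (0.84) and A730049H05Rik (0.84). For Dppa3, Klhl13 (0.92) stood ahead of Gm13261 (0.82), B4galt1 (0.78), A930001N09Rik (0.78) and D630013G24Rik (0.77). For Dppa5a they were Qdpr (0.92), Gm561 (0.90), 1700029P11Rik (0.89), Klf2 (0.87), a pluripotency transcription factor, and Gpa33 (0.87). Msh6, a mismatch repair gene, is in the lists of both Dppa2 and Dppa4, and the lists of Dppa3 and Dppa5a hold no gene of another list.

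Genes of the pathways in which Dppa proteins act were counted from lists chosen with earlier results known. Of 12 two-cell-stage genes in the table, known targets of Dppa2 and Dppa4, 7 were tested in Nanog/Otx2 cells. Without LIF 5 of these were lower, against 49.8% of all genes called in either direction, and Dppa2 and Dppa4 fell as well. The median log2 change of the 7 was -0.996 against -0.01 over all genes tested, and a link to Dppa2 or Dppa4 was not tested. Among the 5 were Zfp352 at -1.63, Zscan4c at -1.42 and Zscan4e at -1.12. In Nanog cells, where both regulators also fell, edgeR called 0 of 7 on LIF withdrawal, as did DESeq2, and 0 had an unadjusted p under 0.05, with a median of -1.16 against -0.05. For Dox the counts were likewise 0 of 7 by each of these measures in both guides, with and without LIF. With Dox in 44iN cells 0 of 8 were called, 5 had an unadjusted p under 0.05 and the median was -0.81. In LT cells 2 of 9 were higher than in Tg2a cells, against 8.61% of all genes called. Lines of C2 had lower values than lines of C1 for 6 of 8 of these genes, against 31.6% of all genes called. Among them was Dux, an activator of the two-cell programme, at -1.01, and the median was -0.92 against -0.02 over all genes. Dppa2 and Dppa4 were not called between the clones, at -0.10 and -0.07. Zscan4 genes are near-identical copies and their counts are uncertain.

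Of 10 genes of DNA methylation and its removal, the process that Dppa3 restrains, 4 rose and 2 fell on LIF withdrawal in Nanog cells, and 5 rose and 2 fell in Nanog/Otx2 cells, against 41.5% and 49.8% of all genes called in either direction. Dnmt3b, a de novo methyltransferase, rose by 4.07 and 3.38 on the log2 scale, and Tet2, a dioxygenase that oxidises methylcytosine, changed by -3.09 and -3.83. On Dox without LIF both moved the other way, with Tet2 at 2.93 and 2.42 and Dnmt3b at -1.10 and -0.80. Dppa3 itself was called in Nanog/Otx2 cells alone, and its response to LIF was not tested for a difference between the guides.

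The Dppa genes can be set beside 26 other ES-cell-associated genes, matched by 25 symbols. In Nanog cells without LIF, 23 of 26 were lower, against 41.5% of all genes called in either direction. Their median log2 change was -2.54, while the medians of the 4 Dppa genes and of all genes were -0.63 and -0.05. Klf4, a LIF-responsive transcription factor, fell by 5.56 on the log2 scale, and Tbx3 and Tcl1 stood at -5.31 and -5.12, against -2.18 for Dppa5a, -0.79 for Dppa2 and -0.46 for Dppa4. Dox without LIF raised 15 of 26 in Nanog cells, where the median was 1.14, and 15 of 26 in Nanog/Otx2 cells, where 1 fell and the median was 0.71. Of all genes tested, 5.14% and 17.3% were called there in either direction. The largest rises were those of Prdm14, Esrrb and Zfp42 in Nanog cells, at 3.28, 3.23 and 3.11, against 1.07 for Dppa5a. With LIF, 9 of 26 were lower with Dox in Nanog/Otx2 cells, as Dppa4 was, and 2 higher, against 22.9% of all genes called. In Nanog cells with LIF edgeR called 0 of 26 and 0.563% of all genes, with 7 of the 26 at an unadjusted p under 0.05 and 2 called by DESeq2. LT cells had 8 of 26 lower and 2 higher than Tg2a cells, against 8.61% of all genes called, with Prdm14 at -2.38, Klf4 at -2.31 and Esrrb at -1.62.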

How the data were processed

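Total RNA was sequenced as stranded poly(A) libraries with single-end reads. The authors aligned reads with STAR and quantified them with RSEM on mm9, using strand, and deposited estimated counts, which were already rounded to whole numbers. The deposited normalised counts, of the unit signal, are these counts divided by the size factors of DESeq2 for each library, as the authors' methods state. STAR, RSEM and DESeq2 versions are not given in the sources used here.

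Here, estimated counts were fitted in R 4.3.3 with edgeR 4.0.16 (TMM, estimateDisp, glmQLFit, glmQLFTest). A gene was tested if some condition of the fit had no library under 10 normalised counts, p-values were adjusted over all of them (Benjamini-Hochberg, two-sided) and genes were called at an adjusted p under 0.05. The SE of a log2 fold change was its size divided by the square root of the F statistic. Nanog and Nanog/Otx2 SunTag cells (11 and 15 libraries) had separate models with terms for LIF, Dox and LIF by Dox. Guides were compared in all 26 libraries, levels with Dox by a model in which libraries without Dox share a term for both guides. The 44iN cells with Dox or 24 h without it were fitted alone, as were LT with Tg2a cells. The comparisons of guides without Dox and of clones were added after the values had been seen. The Dppa genes and the gene lists were chosen with earlier results of these data known. Named genes were the 4 Dppa genes, Nanog, Otx2, the 5 genes most correlated with each Dppa gene, genes within 200 kb of Nanog called in a comparison, and up to 3 called genes of each list with the largest changes. Msh6 and the copies of Dppa genes are named as members of these sets. Likeness used log2(normalised count + 1).

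SunTag libraries of the same line (C1 or C2, from the labels) pair across conditions. Their deviations from condition means correlated with r = -0.06 to 0.41 in Nanog cells, where the line was the block, and -0.08 to 0.55 in Nanog/Otx2 cells. There the block was the line with its replicate number, and libraries that share both had r = 0.13 to 0.55. In 4 SunTag libraries the number in the column header differs from that in the title, which was used. The block depends on it in 1 of these, a Nanog/Otx2 library. Alternatives were DESeq2 1.42.0 (Wald test), its size factors in edgeR, other filters, these blocks or the replicate number in other cells, a Nanog/Otx2 block by the line alone or by header numbers (both added after the values were seen), fewer libraries in a fit, and leaving out each library. The fits were checked on simulated counts with the same spread setting for every gene and no differences between lines. That check does not cover the line differences of these data or the wide spread of Dppa3. Library totals, from 6107512 to 92244655, bound the precision of low genes such as Dppa3. The 3 Tg2a libraries in 2i medium and the samples of other assays were not analysed here. No promoter or protein sequence was used here.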

Additional observations from a re-analysis of the deposited data

How the results depend on the processing

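Leaving out a library moved the count of Dppa genes called from 1 to 3 for LIF withdrawal in Nanog cells, from 0 to 3 for Dox without LIF and from 0 to 2 for Dox without LIF in Nanog/Otx2 cells. It gave 0 to 1 for Dox with LIF in Nanog/Otx2 cells, for the difference of Dox responses with LIF and for Dox in 44iN cells, and 1 to 2 for the guides without LIF and Dox. Log2 changes whose sign turned without a library were mostly those of Dppa3. Its range was -0.40 to 1.09 for LIF withdrawal in Nanog cells, -0.93 to 2.24 for Dox with LIF, -1.35 to 1.81 for the interaction, -0.17 to 0.48 for Dox without LIF in Nanog/Otx2 cells, -3.09 to 0.031 for the difference of Dox responses with LIF, -1.83 to 0.028 for Dox in 44iN cells and -1.23 to 0.50 for LT against Tg2a cells. For Dox with LIF in Nanog cells Dppa4 ranged from -0.12 to 0.43 and Dppa5a from -0.60 to 0.25. Dppa5a ranged from -0.60 to 0.27 for the difference of Dox responses with LIF. For Dox in 44iN cells the ranges were -0.43 to 0.15 for Dppa2, -0.26 to 0.13 for Dppa4 and -0.69 to 0.050 for Dppa5a.

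With a block for the line, in Nanog/Otx2 cells the line with its replicate number, 1 Dppa gene was called for the interaction in Nanog cells and 0 for the level with Dox without LIF between guides, where Dppa5a was -0.22, and Dppa3 was -0.35 for LIF withdrawal in Nanog cells. Apart from these and the call of Dppa2 on Dox without LIF in Nanog cells, this block changed no other call of a Dppa gene in SunTag cells. In the comparisons with Nanog/Otx2 libraries, the line alone or header numbers as the replicate block changed the same calls, with Dppa5a at -0.21 and -0.22 for that level. LT and Tg2a libraries share only a number (r = 0.08 and 0.19), as do 44iN libraries (r = 0.49 in both pairs, equal by construction). With the number as a block, 1 Dppa gene was called between LT and Tg2a cells, Dppa2 at 0.35 (edgeR, adjusted p = 0.0261), 4840 instead of 1286 genes were called there, and 1912 instead of 0 for Dox in 44iN cells, where 434 were called without a filter. In Nanog/Otx2 libraries alone the clone difference was 0.093 for Dppa2, 0.044 for Dppa4 and 0.021 for Dppa5a. The causes of these shifts were not tested.

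Over all genes, DESeq2 called 1509 against 803 by edgeR for Dox without LIF in Nanog cells, 588 against 88 with LIF, 877 against 302 for the interaction, 42 against 5 and 54 against 6 for the differences of Dox responses without and with LIF, 141 against 0 in 44iN cells and 2294 against 1286 for LT cells. In Nanog/Otx2 cells the block called 5215 against 2702 genes for Dox without LIF and 6401 against 3577 with LIF, and in Nanog cells 293 against 88 for Dox with LIF. By line alone it called 4690 and 5831 in Nanog/Otx2 cells and 17 against 6 for the difference of Dox responses with LIF, and by header numbers 5398, 6519 and 6. The block called 10 against 5 genes for the difference without LIF, and without a filter 151 genes were called for Dox with LIF in Nanog cells. Without a library, 277 to 1617, 3 to 142 and 81 to 481 genes were called in Nanog cells for Dox without LIF, Dox with LIF and their interaction, and 1756 to 3007 and 1962 to 4036 in Nanog/Otx2 cells for Dox without and with LIF. The ranges were 0 to 8 and 1 to 937 for the differences of Dox responses, 2306 to 5299 and 2799 to 6108 for the levels between guides without and with Dox, 61 to 3413 in 44iN cells and 19 to 2618 for LT cells. Depth limits Dppa3 most, with 11 counts in its shallowest library.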
